A study of Homo sapiens with 22 samples.

Results

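The libraries described here come from H1299, an established line of human lung carcinoma (non-small cell type), and answer which genes still respond to inhibition of GSK3 when β-catenin is low and BRCA2 is depleted. The cells carried an inducible shRNA against BRCA2, and every culture of the comparison received doxycycline (DOX, 2 µg/mL for 3 days) and siRNA against β-catenin (siβ-catenin). In 3 cultures the GSK3 inhibitor LY2090314 (GSK3i, 250 nM for 24 h) was added, and 3 were left without it. These 6 of the 22 libraries of the series were chosen by their labels alone. They were set beside 6 BRCA2-deficient libraries with control siRNA (DOX as above, 3 with GSK3i and 3 without) and 5 siβ-catenin libraries of BRCA2-proficient cells (no DOX, 3 with GSK3i and 2 without). DOX and the BRCA2 shRNA always went together, and no culture had DOX without the shRNA, so that their effects cannot be told apart. The labels do not say whether the line was 1 clone.

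GSK3 is a kinase that phosphorylates β-catenin, which marks it for ubiquitylation and degradation by the proteasome. When GSK3 is blocked, β-catenin accumulates, enters the nucleus and, bound to TCF/LEF factors, activates WNT target genes. β-catenin is 1 of many substrates of GSK3, which also include glycogen synthase, MYC, cyclins and transcription factors of lysosomal and metabolic genes. By which route a response stays when β-catenin is depleted was not tested.

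Depths, labels and replicates were examined first. The 6 libraries held 23.1 to 29.3 M counts, and all 22 held 18.9 to 29.3 M. CTNNB1 (ENSG00000168036, chromosome 3, 41236232 to 41301587 on GRCh37), which encodes β-catenin, had 2217, 1874 and 1140 normalised counts (counts divided by DESeq2 size factors) with siβ-catenin and 1821, 1645 and 977 with siβ-catenin and GSK3i, against 6317, 8669 and 7840 with control siRNA. All siβ-catenin libraries thus lay below all control siRNA libraries, with group means of 1744 ± 550 and 7609 ± 1190 (SD, n = 3 each) without GSK3i. CTNNB1 RNA was lowered and not absent, and these libraries do not measure the protein. The part of the remaining β-catenin in the response was not tested. Its change with GSK3i was not called (log2 fold change -0.23 ± 0.26, SE; adjusted p = 0.575, DESeq2). BRCA2 (ENSG00000139618) had 86.6, 109 and 100 normalised counts without GSK3i and 108, 147 and 167 with it, against 827 and 1111 in BRCA2-proficient siβ-catenin libraries. Among the markers looked at for the cell type, KRT8, KRT18 and VIM (vimentin) were abundant, whereas CDH1, the epithelial cadherin, stayed below 10 counts in all 6 libraries. Markers of fibroblasts, endothelium, leucocytes and differentiated lung were scarce, with sums over each list of at most 211.5, 165.2, 36.3 and 112.2 normalised counts per library. In the BRCA2-proficient arm, both siβ-catenin libraries labelled replicate 2 went against their labels. PDCD4, which fell with GSK3i in BRCA2-deficient cells with either siRNA, had 291 normalised counts in the library labelled siβ-catenin replicate 2 and 1998 in the one labelled as replicate 2 of GSK3i with siβ-catenin, against 1056 in siβ-catenin replicate 3 and 105 and 109 in the other 2 GSK3i libraries. Named results that rest on these 2 libraries are given with and without them, here or among the flagged results.

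With β-catenin depleted, GSK3i still changed many genes. Of 17610 genes, 1507 rose (8.56%) and 2027 fell (11.5%), at an adjusted p below 0.05 and a log2 fold change beyond 0.5, together 20.1%. The median change over all genes tested was 0.013 on the log2 scale. Among the largest changes decreases prevailed. The groups did not overlap for 40.4% of the genes tested, called or not. In size, 891 genes fell by more than 1 on the log2 scale and 315 rose by more than 1. Protein-coding genes made up 85.3% of those that rose, 86.3% of those that fell and 76.8% of those tested. The count depended on single libraries, since 2220 genes were called (1004 higher, 1216 lower) without siβ-catenin replicate 1, and 1351 were lower without siβ-catenin replicate 2.

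The promoters of 3 genes are shown because each holds letters that were searched for in promoters, and because these genes moved in 3 different ways. TCP11L2 fell with GSK3i with and without siβ-catenin, OSGIN1 rose in both, and SP5 rose with control siRNA but fell after siβ-catenin. Each sequence spans 250 bases before to 50 bases after the first start site listed by RefSeq (GRCh38.p14, plus strand), and the windows lie at chr12:106302483-106302782, chr16:83952990-83953289 and chr2:170715087-170715386. Capitals mark the FOXO letters GTAAACA in TCP11L2, the AP-1 letters TGACTCA in OSGIN1 and the TCF/LEF letters CTTTGAT in SP5.
TCP11L2: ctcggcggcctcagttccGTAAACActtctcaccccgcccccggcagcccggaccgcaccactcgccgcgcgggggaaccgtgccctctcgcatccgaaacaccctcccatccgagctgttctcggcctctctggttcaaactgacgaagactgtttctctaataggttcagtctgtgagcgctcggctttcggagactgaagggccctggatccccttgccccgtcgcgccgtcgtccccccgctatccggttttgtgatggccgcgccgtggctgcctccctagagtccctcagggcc
OSGIN1: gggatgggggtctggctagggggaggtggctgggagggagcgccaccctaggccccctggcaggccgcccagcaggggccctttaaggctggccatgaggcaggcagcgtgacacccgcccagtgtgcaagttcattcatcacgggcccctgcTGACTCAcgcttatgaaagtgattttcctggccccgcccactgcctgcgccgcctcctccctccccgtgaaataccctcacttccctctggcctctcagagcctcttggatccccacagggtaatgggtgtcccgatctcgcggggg
SP5: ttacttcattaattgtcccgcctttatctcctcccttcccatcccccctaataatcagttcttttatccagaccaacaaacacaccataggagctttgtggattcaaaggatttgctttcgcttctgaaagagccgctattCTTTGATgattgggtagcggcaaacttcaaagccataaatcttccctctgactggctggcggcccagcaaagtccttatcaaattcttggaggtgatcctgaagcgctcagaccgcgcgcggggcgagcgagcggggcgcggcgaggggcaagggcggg
In these windows the matches began at -232, -97 and -109 from the start site. Both strands were searched. The genes shown were picked because they held a match, and most promoters searched held none. The FOXO letters stood in 1 of 11 promoters of the largest decreases and the AP-1 letters in 2 of 6 of the largest increases. The TCF/LEF letters stood in 1 of 6 promoters of named genes with a lower response after siβ-catenin. The E2F letters TTCCCGC stood in 0 of 2, those of CDC6 and ORC1. A match is a description of the letters and not a binding site.

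The largest decreases included genes that restrain translation, pyruvate oxidation and PI3K, and an activator of apoptosis. PDCD4 (chromosome 10, 112631553 to 112659764), an inhibitor of translation, had 1577, 1771 and 1291 normalised counts without GSK3i and 143, 156 and 142 with it. This was a 10.5-fold decrease with no overlap (log2 fold change -3.39 ± 0.18, adjusted p = 5.02e-76). PDCD4-AS1 and BBIP1 overlap it on the other strand, and as the strand setting of the counting is not stated, their reads cannot be told apart. The same holds for TCP11L2 (CKAP4), PDK4 (PDK4-AS1) and PIK3IP1 (PIK3IP1-DT). Many other named genes share this limit, among them LEF1 (LEF1-AS1), TCF7 (SKP1), MYC (CASC11), CDKN2A (CDKN2B-AS1), JUNB (HOOK2), LOX (SRFBP1) and IFIT2 (LIPA). YPEL2 (chromosome 17, 57409016 to 57479090), a member of the yippee family, had 316, 342 and 322 normalised counts without GSK3i and 39.0, 44.3 and 31.6 with it (-3.10 ± 0.23, adjusted p = 8.46e-39). TCP11L2, whose promoter is printed above, had 212, 281 and 122 normalised counts and then 7.002, 17.1 and 15.1 (-3.96 ± 0.38, adjusted p = 1.85e-22). Lack of overlap was a condition for a gene to be taken among the largest decreases, so it is no further evidence.
PDK4, the kinase that holds back pyruvate dehydrogenase, fell by 3.09 ± 0.32 on the log2 scale. ABTB1 (-2.93 ± 0.18) and UBALD2 (-2.93 ± 0.19) fell to like degrees. BMF, a BH3-only activator of apoptosis, fell by 2.81 ± 0.31. KLHL24, which encodes an adaptor of a ubiquitin ligase, fell by 2.69 ± 0.28, PIK3IP1, an inhibitor of PI3K, by 2.62 ± 0.22 and SMAD6, an inhibitor of BMP signalling, by 2.47 ± 0.31. LINC02593, a long non-coding RNA, fell by 3.47 ± 0.28. MAGED4B had 1161, 28.7 and 387 normalised counts without GSK3i and 18.01, 17.1 and 6.78 with it (-5.23 ± 1.25, adjusted p = 0.000387). Its groups did not overlap, but its level ranged from 28.7 to 1161 between replicates without GSK3i and it has a near-identical copy, MAGED4, so its value is uncertain.

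**Figure D1:**
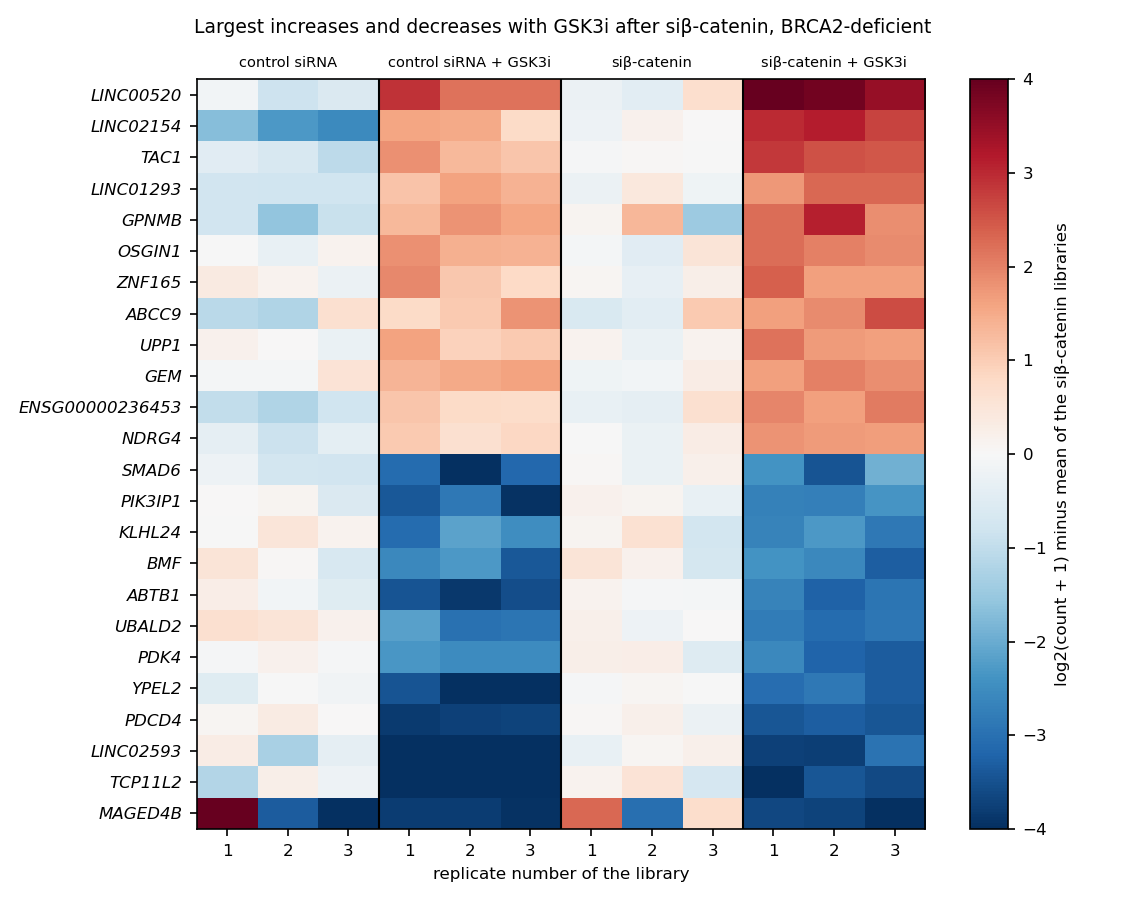
Heat map of the 12 genes with the largest increases and the 12 with the largest decreases among called genes with a mean of at least 100 normalised counts and no overlap. Columns are the 12 BRCA2-deficient libraries by group and replicate number, rows are genes, and colour is log2(count + 1) minus the mean of the siβ-catenin libraries (red higher, blue lower, capped at 4 on both sides). The fitted change has the same sign under control siRNA for all 24 genes, but MAGED4B is high in 1 of the 3 control libraries without GSK3i (3845, 22.8 and 12.3 normalised counts).

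The largest increases included 4 long non-coding RNAs, the neuropeptide gene TAC1 and the stress gene OSGIN1. LINC00520 (chromosome 14, 56247850 to 56263449) had 18.5, 16.01 and 35.3 normalised counts without GSK3i and 366, 332 and 255 with it (log2 fold change 3.77 ± 0.29, adjusted p = 2.52e-34). LINC02154, on chromosome X, rose by 2.98 ± 0.23 and LINC01293 by 2.12 ± 0.24. TAC1, the precursor of substance P, had 71.4, 75.8 and 72.2 normalised counts and then 527, 429 and 418 (2.65 ± 0.20, adjusted p = 1.87e-36). As for the decreases, these genes were taken only if their groups did not overlap.
OSGIN1 (chromosome 16, 83964916 to 83999937), a target of the oxidative stress factor NRF2, had 737, 567 and 1097 normalised counts without GSK3i and 3613, 3143 and 2850 with it (2.01 ± 0.22, adjusted p = 7.7e-17). UPP1, a uridine phosphorylase, rose by 1.86 ± 0.20. GEM, a small GTPase that is induced early by growth signals, rose by 1.84 ± 0.18, ZNF165 by 1.93 ± 0.25, NDRG4 by 1.72 ± 0.17 and the long non-coding RNA ENSG00000236453 by 1.83 ± 0.25. GPNMB, a glycoprotein of lysosomes and melanosomes, had 89.1, 212 and 29.8 normalised counts and then 394, 719 and 302 (2.10 ± 0.80, adjusted p = 0.0374). It lost its call when any 1 of 5 libraries was left out, with adjusted p-values of 0.0535 to 0.208, but had an adjusted p of 1.44e-06 when the replicate number was used as a block. ABCC9, a subunit of ATP-sensitive potassium channels, rose by 1.92 ± 0.60 and lost its call without siβ-catenin replicate 1 (adjusted p = 0.0668), without siβ-catenin replicate 2 (0.0711) or without GSK3i with siβ-catenin replicate 3 (0.0844).

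The response of WNT target genes differed between the siRNAs. Of 17 tested targets, 3 rose with GSK3i after siβ-catenin, 4 fell and 10 were not called, with a median change of -0.16. After siβ-catenin 8.56% of all genes tested rose and 11.5% fell. With control siRNA, where 11.6% of all genes rose and 13.8% fell, 9 rose and 2 fell, with a median of 0.82. For 6 of the 17 the difference between the responses was called, all lower after siβ-catenin. AXIN2 (chromosome 17, 63524681 to 63557766), a scaffold of the β-catenin destruction complex that is itself induced by WNT, had 94.96, 96.9 and 80.8 normalised counts with siβ-catenin and 227, 193 and 118 with GSK3i added. The groups did not overlap, and the rise was 1.97-fold (log2 fold change 0.98 ± 0.27, adjusted p = 0.00258). With control siRNA, AXIN2 rose from 59.5, 63.9 and 63.4 to 1231, 1747 and 1593 normalised counts (4.61 on the log2 scale). The difference between the responses, tested as the interaction of GSK3i and siRNA, was -3.65 ± 0.34 (adjusted p = 2.63e-22).
LEF1, a transcription factor that binds β-catenin, had 52.1, 37.1 and 82.4 normalised counts and then 86.0, 48.4 and 98.7, which overlap (0.45 ± 0.36, adjusted p = 0.39). With control siRNA it rose by 3.05, and the difference was -2.62 ± 0.43 (adjusted p = 1.98e-06). TCF7, another factor of this family, rose by 0.69 ± 0.21 after siβ-catenin and by 2.24 with control siRNA (difference -1.57 ± 0.27, adjusted p = 6.67e-06). The rise of TCF7 after siβ-catenin was not called without siβ-catenin replicate 2 (0.53, adjusted p = 0.073). SOX4, a transcription factor, had a change of -0.27 ± 0.15 that was not called (adjusted p = 0.195), against a rise of 1.45 with control siRNA (difference -1.74 ± 0.20, adjusted p = 8.31e-15). ZNRF3, a ubiquitin ligase that removes WNT receptors, rose by 0.73 ± 0.17, less than the 1.59 with control siRNA, and this difference was not called (-0.87 ± 0.26, adjusted p = 0.107).
SP5 (chromosome 2, 171571847 to 171574588), a transcription factor induced by WNT, had 213, 153 and 174 normalised counts with siβ-catenin and 92.0, 59.5 and 67.0 with GSK3i added, without overlap. It thus fell by 1.30 ± 0.25 (adjusted p = 7.54e-06), whereas it rose by 0.82 with control siRNA (difference -2.13 ± 0.31, adjusted p = 2.13e-08). The secreted WNT antagonist DKK1 fell 2.01-fold (adjusted p = 0.000349, but 0.093 in 1 model over the 8 groups), and its change with control siRNA was -0.32, which was not called. The study names AXIN2, LEF1, SOX4 and TCF7 from these libraries, so that they are not independent evidence of a direction. Among 39 components of the WNT pathway, 4 rose and 6 fell, and 2 rose and 3 fell without siβ-catenin replicate 1. These counts lay near the shares of all genes tested (8.56% higher, 11.5% lower) and are not read as a result about the pathway. PYGO1, a nuclear partner of β-catenin, rose by 0.88 ± 0.22, and the co-repressor TLE3 (-0.94 ± 0.16) and the receptor FZD2 (-0.90 ± 0.19) fell. GSK3A rose by 0.55 ± 0.14, and by 0.49 without siβ-catenin replicate 2 or without GSK3i with siβ-catenin replicate 1. GSK3B had a change of 0.07 ± 0.18 (adjusted p = 0.835).

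**Figure D2:**
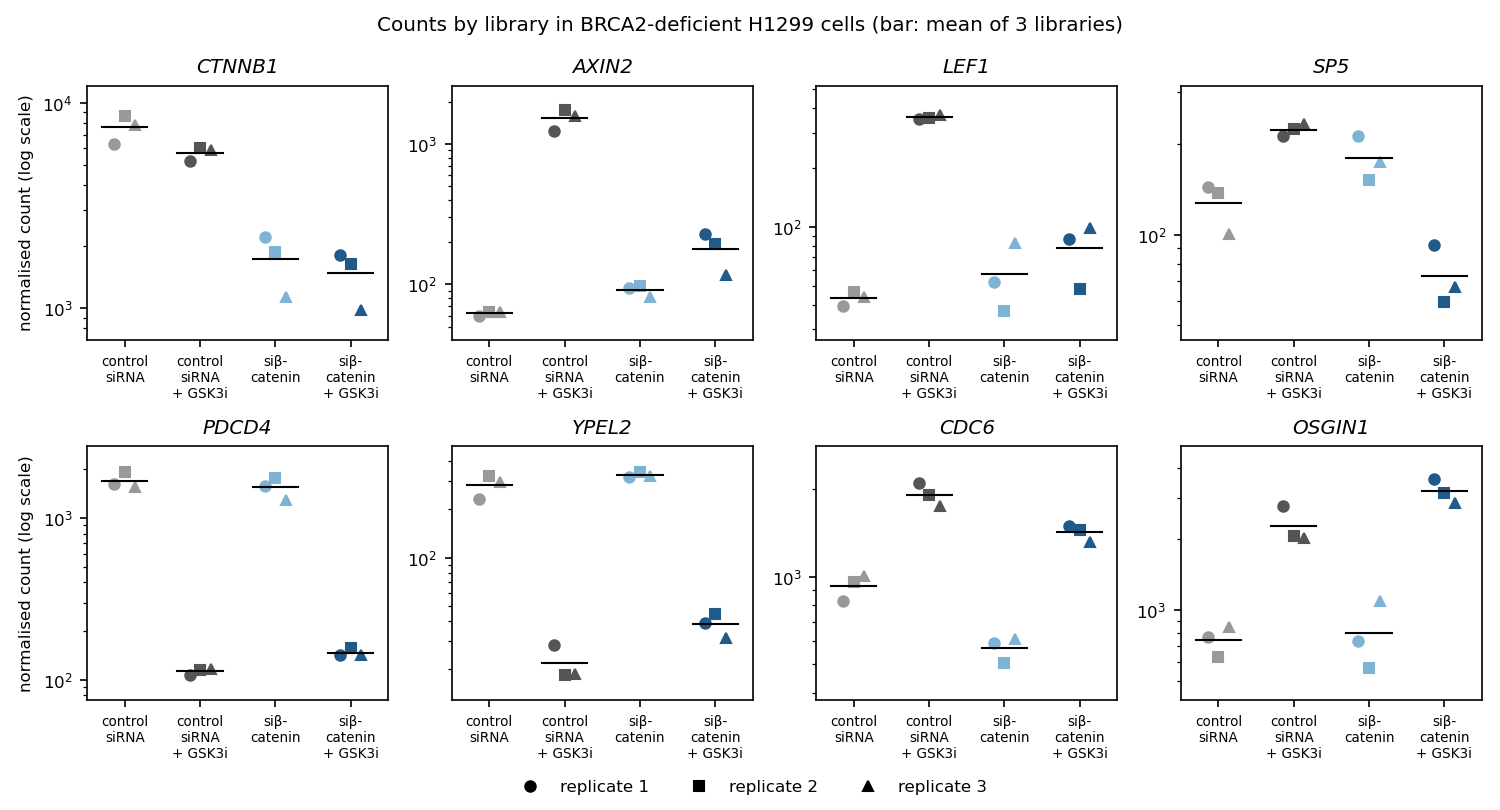
Normalised counts (log axis) of 8 genes in the 12 BRCA2-deficient libraries. Each symbol is a library, its shape the replicate number, and the bar the mean of 3 libraries. AXIN2 and LEF1 are high with GSK3i under control siRNA alone, SP5 falls with GSK3i after siβ-catenin, PDCD4 and YPEL2 fall and CDC6 and OSGIN1 rise with GSK3i under both siRNAs.

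Most of the response was shared with that of cells with control siRNA, a comparison that has no library in common with this one. The comparisons are still not independent, since same-numbered libraries of both siRNAs deviated together from their group means. Pearson's r was 0.868, 0.56 and 0.586 with GSK3i and 0.526, 0.359 and 0.184 without it. The part of these shared deviations in the overlap was not tested. Over 16712 genes tested in both, 2539 were called in the same direction (1029 higher, 1510 lower) and 5 in opposite directions. The shared genes were 73.4% of the 3459 called after siβ-catenin and 59.4% of the 4272 called with control siRNA. The changes were correlated across genes (Pearson's r = 0.84, Spearman's rho = 0.82), where genes are not independent replicates, and were smaller after siβ-catenin. For genes that rose with control siRNA the median change was 0.76 with control siRNA and 0.54 after siβ-catenin, and for genes that fell it was -1.07 and -0.78. These genes were taken for their change with control siRNA, and such a choice by itself favours smaller values in the other libraries. The 5 genes called in opposite directions were PLPP3, TRIB2, SP5, NOMO3 and RNF125, and all 5 rose with control siRNA and fell after siβ-catenin. NOMO3 has near-identical copies and is uncertain, and PLPP3, TRIB2 and NOMO3 were named after their values were seen.
The difference itself was called for 81 of 18117 genes (0.447%), 58 of them with a lower response after siβ-catenin (0.320%) and 23 with a higher one (0.127%). Of the 58, 50 were genes that rose with control siRNA. With the replicate number as a block 332 genes were called, and edgeR's quasi-likelihood test called 11, among them AXIN2, SOX4, SP5, LEF1 and TCF7. Leaving out GSK3i replicate 2 of the control siRNA arm gave 46 calls, and leaving out siβ-catenin replicate 1 gave 52. The test had limited reach: on simulated counts a difference of 1 on the log2 scale was recovered for 45.5% of 200 genes, against 86.0% for the change within the siβ-catenin libraries. Beside the 91 and 172 genes recovered, 20 and 35 unchanged genes were called. The changed genes were drawn from those with a mean count of at least 50, so recovery at lower counts was not measured. The simulated counts held no change beside those of the 200 genes and no shared deviation of same-numbered libraries. Recovery in the real libraries can therefore differ.
RNF125, a ubiquitin ligase, fell by 0.70 ± 0.18 after siβ-catenin and rose by 0.72 with control siRNA (difference -1.43 ± 0.22, adjusted p = 2.23e-07). PALD1, a phosphatase-like protein, had 463, 462 and 452 normalised counts with siβ-catenin and 471, 512 and 429 with GSK3i added, against a rise of 1.19 with control siRNA (difference -1.17 ± 0.18, adjusted p = 1.04e-07). BCL2L11, which encodes the BH3-only protein BIM and was chosen after its values were seen, had a change of -0.30 after siβ-catenin that was not called, against a rise of 1.09 (difference -1.41 ± 0.25, adjusted p = 1.79e-05). Of the 23 genes with a higher response after siβ-catenin, 17 fell with control siRNA and 4 rose after siβ-catenin. TFPI, an inhibitor of blood coagulation, fell by 0.77 ± 0.14 against 1.59 with control siRNA, and DIO2, which activates thyroid hormone, by 1.06 ± 0.21 against 2.71. ARL14, a small GTPase, had changes of -1.26 ± 0.17 and -2.55. CDKN1A, which encodes p21 and which the study names, had 1068, 1063 and 969 normalised counts with siβ-catenin and 1281, 969 and 962 with GSK3i added (0.06 ± 0.17, adjusted p = 0.848). It fell by 0.71 with control siRNA, and the difference of 0.75 was not called (adjusted p = 0.384, 95% interval 0.20 to 1.31 before adjustment).

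**Figure D3:**
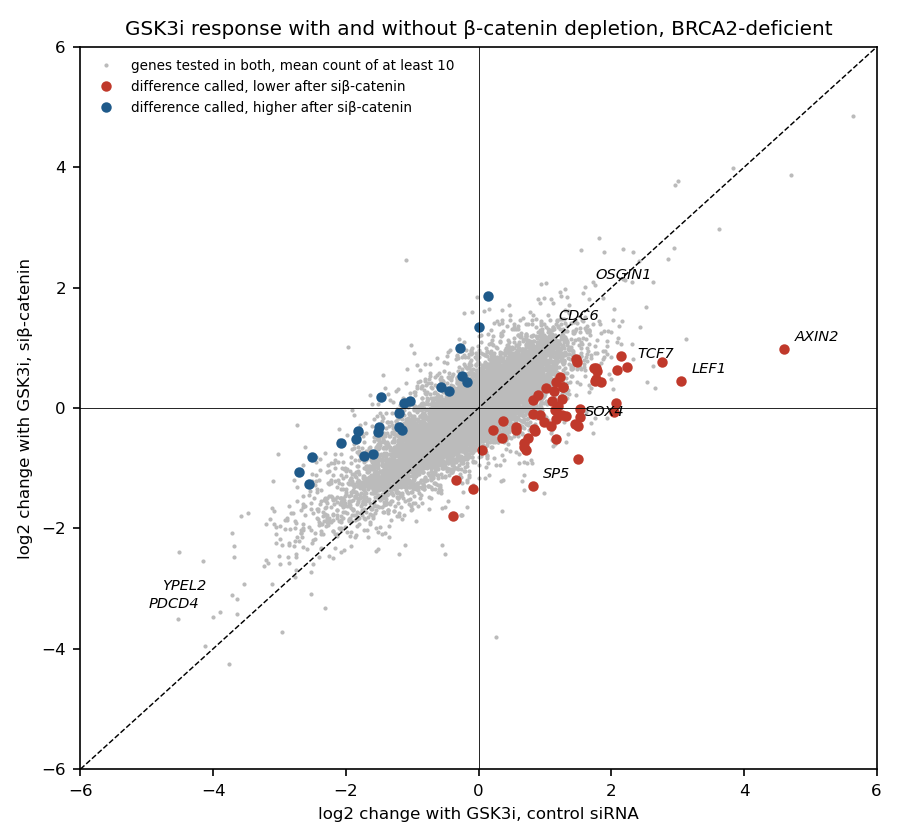
Log2 fold change with GSK3i after siβ-catenin (vertical axis) against that with control siRNA (horizontal axis), 1 point per gene tested in both with a mean of at least 10 normalised counts. The dashed line marks equal changes, and coloured points are genes whose difference was called. Most genes follow the diagonal with a lower slope, and AXIN2, LEF1, TCF7, SOX4 and SP5 lie far below it. Axes end at 6 in both directions, and 2 of 16502 genes lie beyond them.

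Several genes changed to a like degree in both. ULK1, the kinase that starts autophagy, had 2461, 2124 and 2376 normalised counts and then 612, 662 and 643 (-1.86 ± 0.14, adjusted p = 1.53e-36). With control siRNA it also fell by 1.86, and the 95% interval of the difference was -0.37 to 0.35. SH2D5 rose by 1.51 ± 0.15 against 1.60 (interval -0.52 to 0.31), and LINC01293 by 2.12 against 2.21 (-0.76 to 0.56). FGFR3, a receptor of fibroblast growth factors, fell by 1.54 ± 0.29 against 1.57 (-0.83 to 0.85). These genes were picked for small differences, and the intervals give what the data leave possible.

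Genes tied to FOXO factors and quiescence fell as a group. FOXO transcription factors act in cells with low growth signals, where they raise inhibitors of the cell cycle, apoptosis genes and the autophagy machinery. Of 25 tested genes, 20 fell, none rose and 5 were not called, with a median change of -1.19, and with control siRNA 20 fell and 2 rose (median -1.32). The list was written with earlier results of these libraries known, so that its count is not independent evidence. Beside PDCD4 and YPEL2, the members named here were chosen after their values were seen. CCNG2, an atypical cyclin, fell by 2.15 ± 0.29 and FOXO4 itself by 2.17 ± 0.19. FOXO4 had 1082, 1097 and 776 normalised counts and then 202, 221 and 229, which do not overlap. Those not called included SESN1 (0.04 ± 0.16), GADD45A (-0.01 ± 0.49) and FOXO3 (0.07 ± 0.14). FBXO32, an F-box protein of muscle atrophy, had a change of -0.38 ± 0.21 that was not called and fell by 1.82 with control siRNA (difference 1.42, adjusted p = 0.00601). The letters GTAAACA stood in 4.30% of 1442 promoters of genes that fell, in 8.33% of the 84 that fell by more than 2, in 1.45% of 1100 promoters of genes that rose, and in 2.20% of all 11885 tested promoters.

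More than 50% of the tested E2F targets and DNA replication genes rose. Among all genes tested 8.56% rose and 11.5% fell. E2F factors drive genes of the G1/S transition, and licensing factors such as ORC1, CDC6 and the MCM proteins load the replicative helicase onto origins. Of 32 tested E2F targets, 19 rose and none fell (median 0.71, against 15 higher and 0.48 with control siRNA), and of 38 DNA replication genes 23 rose and none fell (median 0.62, against 22 and 0.63). CDC6 (chromosome 17, 38444131 to 38460909) had 591, 505 and 614 normalised counts without GSK3i and 1499, 1452 and 1314 with it, a 2.5-fold rise (1.32 ± 0.15, adjusted p = 1.85e-15). ORC1 rose by 1.39 ± 0.18, MCM4 by 0.90 ± 0.15, FEN1, the flap endonuclease, by 1.21 ± 0.18 and the GINS subunit GINS3 by 1.13 ± 0.20. Neither CCNE1, which encodes cyclin E1 (0.18 ± 0.17, adjusted p = 0.47), nor CCND1, which encodes cyclin D1 (-0.16 ± 0.19, adjusted p = 0.61), was called. With control siRNA neither CCNE1 (0.02, adjusted p = 0.971) nor CCND1 (0.41, adjusted p = 0.0509) was called either, and their differences between siRNAs were not called. CDC6, CCNE1 and CCND1 are named by the study. The letters TTCCCGC, an E2F motif, stood in 5 of 16 promoters of E2F targets that rose (31.2%), in 13.4% of promoters of genes that rose and in 10.0% of all tested.
Of 38 G2/M genes, 19 rose and none fell (median 0.51), led by CKS2, a cyclin-dependent kinase subunit (1.04 ± 0.19), and WDR62, a spindle pole protein (0.95 ± 0.22). This count rested on single libraries: it was 7 without siβ-catenin replicate 1, 6 without siβ-catenin replicate 2 and 11 without GSK3i with siβ-catenin replicate 3. Among 32 genes of homologous recombination and the Fanconi pathway, 11 rose and 1 fell. XRCC2, a factor of recombination repair, had 179, 193 and 309 normalised counts and then 347, 724 and 749 (1.42 ± 0.28, adjusted p = 1.55e-05), and EXO1, a resecting nuclease, rose by 1.12 ± 0.21. The gene that fell, RMI2 (-0.59 ± 0.23, adjusted p = 0.0437), lost its call when any 1 of 5 libraries was left out (adjusted p = 0.063 to 0.233) and under edgeR's quasi-likelihood test (adjusted p = 0.0811), and SOCS1 overlaps it. Of 16 G1 cyclins and CDK inhibitors, 4 rose and 5 fell. CDC25A, the phosphatase that activates CDK2, rose by 1.05 ± 0.19. The inhibitors CDKN2A (-0.82 ± 0.17) and CDKN1B (-0.76 ± 0.15), which encode p16 and p27, fell. The study followed MYC as protein, which these libraries do not measure. MYC RNA had 4614, 3706 and 4981 normalised counts and then 2568, 2192 and 2488 (-0.87 ± 0.16, adjusted p = 2.58e-06). Its change with control siRNA was -0.27 and not called, and the difference was not called either (-0.62 ± 0.21, adjusted p = 0.233). Its antagonists MXD4 (-1.70 ± 0.19) and MXI1 (-1.10 ± 0.19) fell, and 5 of 12 genes of the MYC network fell and none rose, 3 without siβ-catenin replicate 1.

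Most genes of ribosome assembly rose, as did some of amino acid supply and of lysosomes, beside 8.56% higher and 11.5% lower among all genes tested. Of 32 ribosome biogenesis genes, 22 rose and none fell, with a median of 0.59 that lay below the 0.98 with control siRNA, where 28 rose. NOP16 rose by 1.28 ± 0.20 and LYAR by 1.05 ± 0.16, both nucleolar proteins. Of 24 genes of ATF4 and amino acid supply, 10 rose and none fell (median 0.41, against 17 higher and 0.77 with control siRNA). ATF4 is the transcription factor of the integrated stress response. The count was 5 without siβ-catenin replicate 1, without siβ-catenin replicate 2 or without GSK3i with siβ-catenin replicate 1, and 3 in 1 model over the 8 groups. DDIT3, which encodes CHOP, rose by 1.31 ± 0.22 and SLC3A2, the heavy chain of amino acid exchangers, by 1.02 ± 0.18. SLC7A5, its light chain partner, chosen after its values were seen, had 2135, 1803 and 3286 normalised counts and then 3768, 3526 and 3792 (0.62 ± 0.21), against a rise of 1.78 with control siRNA (difference -1.17, adjusted p = 0.0109).
TFEB and related factors, which GSK3 can phosphorylate, drive lysosomal genes. Of 38 lysosome and autophagy genes, 10 rose and 4 fell (median 0.35, against 4 higher, 5 lower and 0.21 with control siRNA). RRAGD, a GTPase that recruits mTORC1 to lysosomes, had 2548, 2620 and 2449 normalised counts and then 5948, 5339 and 5835 (1.17 ± 0.13, adjusted p = 2.22e-16). MCOLN1, a lysosomal calcium channel, rose by 1.13 ± 0.15. Those that fell were ULK1, GABARAPL1 (-1.86 ± 0.15), WIPI1 (-0.74 ± 0.16) and CTSF (-0.96 ± 0.21), the last pair named to complete the count. ULK1, GABARAPL1 and WIPI1 act in the formation of autophagosomes. Among 21 NRF2 targets, 4 rose and 2 fell, and beside OSGIN1 the haem oxygenase HMOX1 rose by 1.13 ± 0.21. AKR1B10, a reductase chosen after its values were seen, rose by 2.82 ± 0.46 from 5.88, 7.58 and 6.28 to 48.0, 49.4 and 42.2 normalised counts, and AKR1C3 fell by 1.36 ± 0.32. The AP-1 letters TGACTCA stood in 23 of 187 promoters of genes that rose by more than 1 (12.3%), in 4.91% of promoters of all genes that rose, in 6 of 84 of genes that fell by more than 2 (7.14%) and in 3.21% of all tested.

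**Figure D4:**
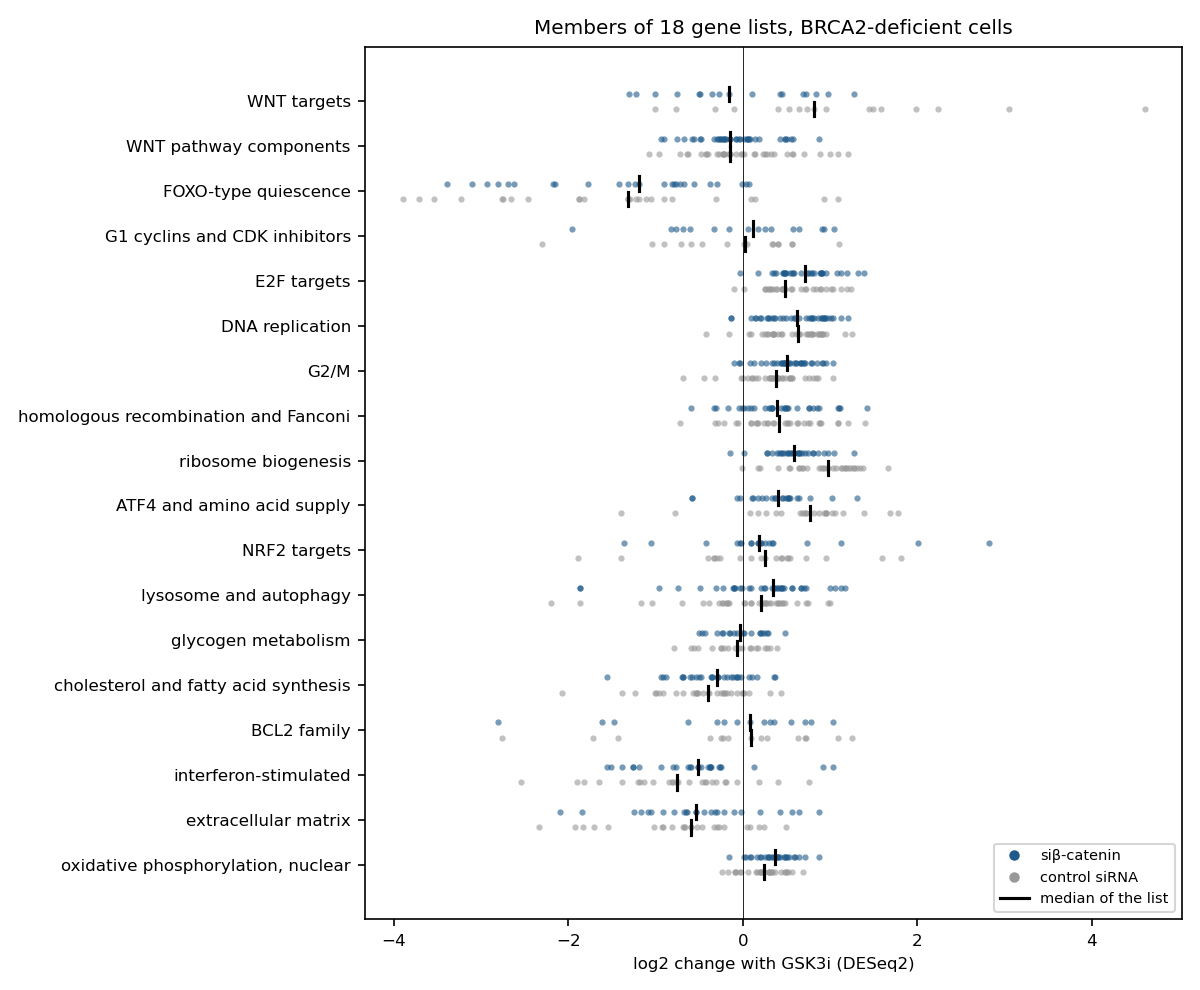
Log2 fold change with GSK3i of the members of 18 gene lists, 1 point per tested gene, after siβ-catenin (blue) and with control siRNA (grey), with the list's median as a black bar. The median of the WNT targets is -0.16 after siβ-catenin and 0.82 with control siRNA, and the medians of the FOXO-type (-1.19 and -1.32) and DNA replication lists (0.62 and 0.63) lie close together.

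Some of the other lists moved mostly in 1 direction, and the rest moved in both directions or little. Over all genes tested, 8.56% rose and 11.5% fell, and counts of small lists are not read as results about a pathway. Of 26 interferon-stimulated genes, 11 fell and 1 rose (median -0.51), with IFIT2 at -1.56 ± 0.30 and the helicase DDX60 at -1.51 ± 0.19. The gene that rose, IFI27 (1.04 ± 0.35, adjusted p = 0.0176), lost its call without siβ-catenin replicate 1 or 2 (adjusted p = 0.128 each) or GSK3i with siβ-catenin replicate 3 (0.184), and under edgeR's quasi-likelihood test (0.0596). With the replicate block 2 rose. Of 25 extracellular matrix genes, 11 fell and 3 rose, but 7 fell without siβ-catenin replicate 1 and 1 rose without siβ-catenin replicate 2 or in 1 model over the 8 groups. LOX, which cross-links collagen, had 639, 577 and 541 normalised counts and then 158, 119 and 131 (-2.10 ± 0.19, adjusted p = 1.42e-26). Of 31 genes of cholesterol and fatty acid synthesis, 7 fell and none rose. The number that fell was 3 without siβ-catenin replicate 1, 4 without siβ-catenin replicate 2 or GSK3i with siβ-catenin replicate 3, and 13 without siβ-catenin replicate 3. TM7SF2, a sterol reductase, had 1324, 1510 and 605 normalised counts and then 439, 463 and 261 (-1.56 ± 0.30, adjusted p = 4.35e-06).
Among 15 tested BCL2 family genes, 4 rose and 4 fell. The activators of apoptosis BMF, BIK (-1.61 ± 0.30) and BBC3 (-1.48 ± 0.23) fell, whereas HRK, another activator (1.04 ± 0.22), and BCL2, an inhibitor (0.78 ± 0.18), rose. JUP, which encodes plakoglobin, the closest relative of β-catenin, had 959, 790 and 877 normalised counts and then 256, 250 and 302 (-1.69 ± 0.17, adjusted p = 2e-21). It fell by 1.37 with control siRNA. None of 20 tested glycogen genes was called, and the lowest adjusted p was that of PHKB (-0.47 ± 0.15, adjusted p = 0.0114), which misses the size criterion. It passed that criterion without siβ-catenin replicate 3 (-0.53) or GSK3i with siβ-catenin replicate 3 (-0.54). Of 30 nuclear genes of oxidative phosphorylation 8 rose (NDUFS3, 0.87 ± 0.16, SDHB, 0.71 ± 0.16), with 4 without siβ-catenin replicate 2, 3 without GSK3i with siβ-catenin replicate 1 and 13 without GSK3i with siβ-catenin replicate 3. None of the 13 mitochondrial genes was called.
Of 15 p53 targets 2 rose and 4 fell (1 rose without GSK3i with siβ-catenin replicate 2, and 2 fell without siβ-catenin replicate 2). AEN, a nuclease, rose by 1.08 ± 0.25. The study reports that H1299 cells lack p53 function. Of 17 AP-1 and immediate-early genes 2 rose (1 without GSK3i with siβ-catenin replicate 1) and 3 fell, among them the AP-1 subunits FOSL1 (0.82 ± 0.17) and JUNB (-1.05 ± 0.19). Of 14 genes of MAPK feedback and ETS factors 3 rose and 3 fell, with the phosphatase DUSP5 at 0.87 ± 0.17 and the ETS factor ETV1 at -2.35 ± 0.28. Of 18 YAP targets 2 rose, with ANKRD1 at 1.39 ± 0.23, and 7 fell, with NUAK2, a kinase, at -1.07 ± 0.19.
Of 17 TGF-β and BMP targets 1 rose and 6 fell. The gene that rose, PMEPA1, lost its call under edgeR's quasi-likelihood test (adjusted p = 0.0739), in wider models and without siβ-catenin replicate 2 or 3 or GSK3i with siβ-catenin replicate 1. Among those that fell was ID3, an inhibitor of basic helix-loop-helix factors (-1.39 ± 0.15). Of 20 NOTCH pathway genes 1 rose (2 with the replicate block or without siβ-catenin replicate 3) and 4 fell, and 2 fell without siβ-catenin replicate 1. HEY1, a repressor induced by NOTCH, rose by 1.18 ± 0.20, and HEYL, its relative, fell by 1.08 ± 0.25. Of 15 NF-κB targets 4 fell and none rose. The number was 7 without GSK3i with siβ-catenin replicate 1 and 2 without replicate 2 or 3 of that group. Of 30 genes of glycolysis and hypoxia 6 rose (3 in 1 model over the 8 groups) and 2 fell, with ENO2, an enolase, at 1.23 ± 0.17, VEGFA, an angiogenic factor, at 0.85 ± 0.16 and BNIP3L, a mitophagy receptor, at -1.60 ± 0.20. Of 16 genes of EMT and adhesion 2 rose and 6 fell, and 3 fell without siβ-catenin replicate 1. None rose without siβ-catenin replicate 2 or GSK3i with siβ-catenin replicate 1. Of 9 replication-dependent histones 3 fell and none rose, with H2BC21 at -1.30 ± 0.18.
Among the cell type markers tested, 2 of 4 epithelial, 1 of 3 mesenchymal (FN1, fibronectin, -0.65 ± 0.19), 1 of 2 fibroblast (PDGFRA, a receptor, -2.01) and the 1 lung marker (NKX2-1, a lung lineage factor, -1.36) fell, 1 of 2 leucocyte markers rose (CD14, 2.09) and the 1 endothelial marker was not called. CD14, at low counts, lost its call under edgeR's quasi-likelihood test (adjusted p = 0.0558), with TMM factors (0.0506) and without GSK3i with siβ-catenin replicate 1 (0.0961). FN1 lost its call without siβ-catenin replicate 1 (0.0752) or GSK3i with siβ-catenin replicate 1 (-0.49). KRT7 (-1.23 ± 0.21) and KRT8 (-0.84 ± 0.21) fell. Marker sums moved with GSK3i: the 6 epithelial markers summed to 13481.5 to 18816.8 normalised counts per library without GSK3i and to 8973.9 to 12645.3 with it, and the 5 leucocyte markers to 12.6 to 22.0 and 28.0 to 36.3. The sums were 22928.1 to 28559.2 and 17119.9 to 25293.5 for 3 mesenchymal, 94.1 to 211.5 and 63.3 to 80.6 for 5 fibroblast, 61.5 to 112.2 and 31.0 to 44.3 for 5 lung and 116.1 to 165.2 and 100.9 to 144.1 for 4 endothelial markers. THY1 was at 0 in all 6 libraries, and SFTPC and LUM in the 3 without GSK3i. The part of these markers in the other results was not tested. In bulk RNA, fewer cells of a kind and less RNA per cell cannot be told apart.

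In BRCA2-proficient cells with siβ-catenin, the response could be measured poorly with the libraries at hand, 2 of which went against their labels. With all 5, DESeq2 called 9 of 17010 genes (0.0529%), of which 8 rose (0.0470%) and 1 fell (0.00588%), and edgeR's quasi-likelihood test called none (263 genes had an unadjusted DESeq2 p below 0.05). The BRCA2-deficient siβ-catenin arm was added to the fit without both libraries labelled replicate 2, which left 1 BRCA2-proficient library without GSK3i. Its number of calls is therefore not set beside the 9. The difference between BRCA2-deficient and -proficient responses was called for 79 of 18002 genes (0.439%), for 263 with the replicate number as a block and for 41 without those libraries, and edgeR called none (2895 had an unadjusted DESeq2 p below 0.05). Leaving out 1 library at a time gave 12 to 914 calls, the latter without BRCA2-proficient siβ-catenin replicate 3.
Genes of DNA replication were among those that differed. CDC6 had 2198 and 2246 normalised counts in BRCA2-proficient siβ-catenin libraries and 2251, 1473 and 2158 with GSK3i added, in replicate order. These levels lay above the 505 to 614 of BRCA2-deficient cells without GSK3i. The difference of the responses was 1.5 ± 0.27 (adjusted p = 0.000175), and 1.34 (adjusted p = 0.000168) without the libraries labelled replicate 2. For ORC1 it was 1.30 (1.19 without them, adjusted p = 0.0157) and for RFC3, a clamp loader subunit, 1.11 (0.93, adjusted p = 0.0143). PDCD4 showed no such difference that was called without them. Its change was -3.30 in BRCA2-proficient cells, and the difference was -0.10 (adjusted p = 0.998), against -3.52 (adjusted p = 0.207) with them.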

How the data were processed

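RNA was sequenced from 22 libraries of H1299 cells in 8 groups (poly(A) selection, strand-specific). The authors aligned reads to GRCh37, removed duplicates and deposited raw read counts per Ensembl gene, and the submitters' processing notes name HISAT2 2.0.4, SAMtools 1.4, Picard 1.9.2 and featureCounts 1.5.0. The Ensembl release and strand setting are not given in the sources used here. The table held 37908 genes, 171 of them without a count, and 36479 IDs had a symbol (the other 1429 held 0.74% of counts). Totals were 18.9 to 29.3 M. The study describes the BRCA2-deficient replicates as independent experiments, and p-values measure the spread between them.

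Counts were tested with DESeq2 1.42.0 in R 4.3.3, after the study's methods, keeping genes below 10 counts in no more than 3 libraries of a comparison, or reaching 10 counts in 3 or more for the differences between responses. A gene was called at a Benjamini-Hochberg adjusted p below 0.05 and a log2 fold change beyond 0.5. Fits used the libraries of each comparison, and differences between responses were interaction terms. The BRCA2-proficient response without both libraries labelled replicate 2 was an exception, fitted together with the BRCA2-deficient siβ-catenin libraries. SE are from the fit, and intervals are 95%. Alternatives were edgeR 4.0.16 quasi-likelihood, TMM factors, no filter, a mean count of at least 20, a test against 0.5, wider models, the replicate number as a block and each library left out. On simulated counts with a log2 change of 1, 172 of 200 genes were recovered for the siβ-catenin response (17610 genes) and 91 of 200 for the difference between siRNAs (18117 genes). In the same runs 35 and 20 unchanged genes were called.

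Same-numbered libraries deviated together from their group means over 11898 genes (Pearson's r = 0.607, 0.517 and 0.431 after siβ-catenin, and 0.762, 0.268 and 0.759 with control siRNA). The reported fits did not use this pairing, and their SE and p-values are those of unpaired groups. The replicate number entered only as a block in the alternative fits. In BRCA2-proficient siβ-catenin libraries r was -0.418 and -0.275.

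Members and the 36 gene lists (761 of 772 genes matched) were chosen with earlier results of these data known. Named genes were the targeted genes and GSK3A and GSK3B, genes taken as named by the study (AXIN2, LEF1, SOX4, TCF7, CDKN1A, CCNE1, CCND1, CDC6, MYC, and ORC1 and MCM4, which its text was not found to name), and the 12 largest increases and 12 largest decreases with a mean count of at least 100 and no overlap. To these came the 2 largest called changes each way per list at a mean of at least 50 (or the lowest adjusted p), the 5 lowest adjusted p each way per interaction at a mean of at least 100, and the 5 shared changes each way beyond 1.5 with the smallest difference. Others are marked as chosen after their values were seen, and 1 gene that the rule takes is not reported here. Promoters were RefSeq windows of 300 bases, found for 11885 tested genes.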

Additional observations from a re-analysis of the deposited data

Results flagged for a closer look

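The response to GSK3i differed between siβ-catenin and control siRNA, by a test of the difference itself, for 81 genes. Among the named genes the response after siβ-catenin was lower for AXIN2 (-3.65 on the log2 scale), LEF1 (-2.62), SP5 (-2.13), SOX4 (-1.74), TCF7 (-1.57), RNF125 (-1.43) and PALD1 (-1.17). It was higher, with a less negative change than with control siRNA, for DIO2 (1.64), HTR1D (1.32), ARL14 (1.28), LINC00707 (1.16), a long non-coding RNA, and TFPI (0.81).

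The response after siβ-catenin differed between BRCA2-deficient and BRCA2-proficient cells for 79 genes, in a fit that includes the 2 libraries labelled replicate 2 that went against their labels. Among the named genes it was higher in BRCA2-deficient cells for TAC1 (3.42), CDC6 (1.5), ORC1 (1.30), BRCA2 itself (1.14), RFC3 (1.11), MCM4 (0.97) and RBBP8, a resection factor (0.95). It was lower for MAGED4B (-6.10), LINC02593 (-4.48), PCSK1N (-2.19), JUP (-2.15), TMEM160 (-2.03), C4orf48 (-1.95), SP5 (-1.95), JUNB (-1.89), LOX (-1.85), H2BC21 (-1.68), CDKN2A (-1.43), CCDC85B (-1.40) and H2AC6 (-1.24). Without those 2 libraries 12 of these 20 differences were still called. Their values were then 1.45 for TAC1, 1.34 for CDC6, 1.19 for ORC1, 1.34 for BRCA2, 0.93 for RFC3, 0.93 for MCM4, -2.52 for LINC02593, -1.68 for PCSK1N, -1.64 for TMEM160, -1.86 for C4orf48, -1.29 for JUNB and -1.31 for CCDC85B. The 8 no longer called were those of MAGED4B (-6.04), SP5 (-1.36), CDKN2A (-0.90), LOX (-1.05), JUP (-0.90), H2BC21 (-1.11), H2AC6 (-0.78) and RBBP8 (0.73).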

How the results depend on the processing

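For the response after siβ-catenin, the count of 3534 stayed within 1.5 times under the replicate block (3722), edgeR's quasi-likelihood test (3307), other scaling, filters and wider models. A test against a log2 fold change of 0.5 called 463 genes (111 higher, 352 lower). Leaving out 1 library gave 2220 to 3570 genes, 1004 to 1622 higher and 1216 to 2001 lower, the lowest without siβ-catenin replicate 1. Of 146 named genes none reversed under the alternatives in which it was tested (9 to 14, with 4 genes tested in fewer than 14). Of the 132 called, 106 kept their call under each alternative run other than the test against 0.5, 26 lost it under at least 1, and 75 lost it under that test. The block ended the call of 1 named gene, HTR1D, and changed no other named call.

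The difference between siRNAs gave 332 genes with the replicate block, 11 with edgeR's quasi-likelihood test and 46 to 111 with 1 library left out. The BRCA2-proficient response gave 3 genes with the replicate block, 0 with edgeR's quasi-likelihood test (263 at an unadjusted DESeq2 p below 0.05) and 3 to 28 with 1 library left out. It gave 578 without both libraries labelled replicate 2, an alternative chosen after seeing the data that leaves 1 library without GSK3i, assumed to vary like the others. The difference by BRCA2 status gave 263 genes with the block, 0 with edgeR (2895 at an unadjusted DESeq2 p below 0.05), 12 to 914 with 1 library left out and 41 without both libraries labelled replicate 2. The cause of these changes was not tested. With 3 libraries a group, the replicate number limits small differences, and intervals cover the spread between these libraries.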
